A study of Mus musculus with 9 samples.

Results

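The ADAM and ADAMTS proteases are zinc-dependent metalloproteinases that cut proteins at the cell surface and in the matrix around cells. ADAM proteins span the plasma membrane and release the outer parts of other membrane proteins, a step called shedding, which sets free EGF receptor ligands and cytokines and starts the cleavage of Notch and cadherins. ADAMTS proteins are secreted, bind the matrix through thrombospondin type repeats and cut proteoglycans such as versican. In epidermis, shedding of EGF receptor ligands is known as a step in keratinocyte migration after wounding. Here 8 members were followed, namely Adam8, Adam9, Adam10, Adam15, Adam17, Adam19, Adamts1 and Adamts9. They were chosen by gene symbol, and all 8 were measured among 17097 genes, through 18 probe sets. For a gene with several probe sets, the set with the highest mean over the 9 arrays was taken as the main one.

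All samples were sorted for basal cells of the epidermis of CD1 mouse tail skin, 4 days after a punch wound 3 mm wide. The sort kept cells with α6 integrin and without CD34, a protein of follicle bulge cells. In the study's methods, α6 integrin stains basal cells of both the interfollicular epidermis and the infundibulum, the upper part of the follicle. Leading edge (LE) cells came from a 4 mm punch, and of these only cells with α5 integrin were kept. Cells of the proliferative hub were cut with a 6 mm punch, and only cells without α5 integrin were kept. The control cells came from skin of the tail far from the wound, and the labels name no α5 integrin gate for them. Each group had 3 arrays, each from 300 cells of tissue pooled from 5 mice, so region, wounding and the α5 integrin gate cannot be told apart. Labels and methods differ on whether the replicates are biological or technical. The p-values therefore cover the spread between these arrays alone, and it may be technical.

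Values are log2 signals after RMA, so a difference of 1 is a 2-fold change. Median signal was 6.47 to 6.53 per array. Nonspecific background, read by 23 probe sets, spanned means from 3.70 to 8.32 with a median of 4.67. Differences may be compressed for genes inside that range, which was not measured. The top of that range, set by the brightest of the 23, lies above the median signal of every array. A place inside the range is therefore common among all probe sets. Adam9, Adam19 and Adamts1 lay inside it in all 3 groups, and Adamts9 lay inside it at the LE and in the hub. Krt5 and Krt14, keratins of basal cells, read 13.23 to 13.34 on all 9 arrays. Of 6 basal keratinocyte markers, 2, Itga6 and Itgb4, were higher at the LE than in the hub and than in control skin. In these comparisons 0 were lower, and in the hub against control 0 were called. Markers of other cells differed between arrays. The myeloid gene Lyz2 read 8.25, 5.36 and 7.12 in LE replicates 1 to 3, against 5.19 to 5.38 in the hub and 4.92 to 5.20 in control skin. The endothelial gene Cdh5 read 9.73, 7.02 and 6.86 at the LE, 6.57, 8.39 and 8.42 in the hub and 6.45, 6.96 and 6.10 in control skin. The 12 endothelial markers were called in no comparison. Of 10 fibroblast markers, 2 were lower at the LE than in the hub, 3 lower at the LE than in control skin and 1 lower in the hub than in control skin. Of 5 T cell markers measured, only Thy1, also counted among these fibroblast markers, was lower at the LE in each of its comparisons. In the hub against control, 0 T cell markers were called. Of 6 Langerhans cell markers, 2 were higher at the LE than in the hub and 1 higher than in control skin, and 1 was lower in the hub than in control skin. For comparison, 10.6% of all genes were called for LE against hub, 22.8% for LE against control and 7.28% for hub against control. Fewer cells of a type and less RNA per cell cannot be told apart in such sorted samples.

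Promoter windows are shown for the 3 members with a window that were higher at the LE than in control skin (Adam8, Adam10 and Adamts1) and for Adamts9, which was lower, because these 4 carry the results that follow. Each runs 5′ to 3′ from 250 bases before to 50 bases after an annotated start, in RefSeq's mouse build GRCm38.p6, and 7 of the 8 members had at least 1 window. Capitals mark matches on either strand to 4 motifs, the AP-1 motif TGANTCA, the GC box GGGCGG, the TATA box TATAAA and the E-box CACGTG. The windows of Adam8 and Adamts9 lie within the annotated span of the gene rather than at its outer end.
Adam8 (chr7:139992513-139992812, minus strand): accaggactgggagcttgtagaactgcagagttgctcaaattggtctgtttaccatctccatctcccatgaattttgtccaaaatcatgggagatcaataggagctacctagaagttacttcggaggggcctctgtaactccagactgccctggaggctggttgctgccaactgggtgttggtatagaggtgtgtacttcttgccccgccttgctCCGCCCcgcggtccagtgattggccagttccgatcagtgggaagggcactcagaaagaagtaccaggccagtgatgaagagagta
Adam10 (chr9:70678732-70679031, plus strand): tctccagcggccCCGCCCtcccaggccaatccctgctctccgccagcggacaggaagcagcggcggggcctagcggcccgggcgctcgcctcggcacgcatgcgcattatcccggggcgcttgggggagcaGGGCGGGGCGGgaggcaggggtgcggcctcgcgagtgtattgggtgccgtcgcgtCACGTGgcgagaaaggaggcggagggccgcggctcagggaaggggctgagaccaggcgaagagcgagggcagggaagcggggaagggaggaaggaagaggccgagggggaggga
Adamts1 (chr16:85803064-85803363, minus strand): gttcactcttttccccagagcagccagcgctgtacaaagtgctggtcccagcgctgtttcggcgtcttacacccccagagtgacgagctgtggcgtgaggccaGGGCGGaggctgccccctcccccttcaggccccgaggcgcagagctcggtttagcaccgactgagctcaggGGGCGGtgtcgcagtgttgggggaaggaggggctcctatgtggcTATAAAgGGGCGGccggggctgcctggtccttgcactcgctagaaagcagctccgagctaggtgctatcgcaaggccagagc
Adamts9 (chr6:92943485-92943784, minus strand): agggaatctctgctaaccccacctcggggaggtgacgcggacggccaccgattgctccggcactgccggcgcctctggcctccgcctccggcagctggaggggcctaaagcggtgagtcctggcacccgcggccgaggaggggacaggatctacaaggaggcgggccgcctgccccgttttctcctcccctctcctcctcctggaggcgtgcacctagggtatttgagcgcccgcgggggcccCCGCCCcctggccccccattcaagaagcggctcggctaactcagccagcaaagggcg
The Adam10 window held 3 GC boxes, 2 of which overlap by 1 base, and 1 E-box at position -64, counted from the start. The Adamts1 window held 3 GC boxes and a TATA box at position -32, and those of Adam8 and Adamts9 each held 1 GC box. A GC box was found in 7 of the 9 windows of members, including at least 1 window of each of the 7 members, and in 35.7% of all 32851 windows in the table. The AP-1 motif was found in 1 member window, a window of Adam19, against 7.81% of all windows, and the TATA box in 1, against 13.6%. The E-box was found in 2 member windows, in Adam10 and Adam19, against 7.15% of all. G and C made up 52.3% of the Adam8 window, 73.3% of the Adam10 window, 64.7% of the Adamts1 window and 70.0% of the Adamts9 window, with a median of 52.7% over all windows. These matches describe letters in the windows and are not measured binding sites.

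Adam8, a membrane sheddase best known from neutrophils and other leukocytes, stepped up toward the wound. It read 10.52, 10.55 and 10.25 on the LE arrays, 9.64, 9.56 and 9.69 on the hub arrays and 8.64, 9.05 and 9.35 on the control arrays. The 3 groups did not overlap, and the order from LE to hub to control held for every array, a pattern shared by 4.03% of all genes. The LE mean of 10.44 ± 0.16 was 0.81 ± 0.16 above the hub mean of 9.63 ± 0.07 (SD for means, SE for the difference, n = 3 arrays in each group; 1.76-fold, adjusted p = 0.0107, limma over all genes). It was 1.43 ± 0.16 above the control mean of 9.01 ± 0.36 (2.70-fold, adjusted p = 0.000176). The call for LE against hub held without each of the 9 arrays in turn (adjusted p up to 0.0470). The hub was above control by 0.62 ± 0.16 (1.54-fold, adjusted p = 0.0485) and lost that call when any array but control replicate 3 was left out (adjusted p up to 0.149).

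Because leukocytes also make Adam8, myeloid markers were set beside it. Of the 18 myeloid markers measured, 2 were called as higher at the LE than in the hub and 5 higher than in control skin, and none was called as lower. Calls as higher covered 5.39% and 11.9% of all genes in these comparisons. The mean log2 level of the markers ran from 6.36 to 6.83 on the LE arrays, from 6.22 to 6.27 in the hub and from 5.86 to 6.07 in control skin. At the LE, 16 of the 18 lay inside the background range. The mean of the 18 was 6.83, 6.36 and 6.77 on LE replicates 1 to 3, lowest in replicate 2. Single markers differed in their order over the LE arrays. Adam8 was highest in LE replicate 2, at 10.55, where Lyz2, not called for LE against hub, was lowest at the LE, at 5.36. Of the 2 markers called there, Cd14 read 7.28, 6.64 and 6.91 on LE replicates 1 to 3, lowest in replicate 2. Cxcr2, the other, read 6.08, 6.40 and 6.43, lowest in replicate 1. The only myeloid markers above the background range at the LE were S100a8 and S100a9, calprotectin genes that keratinocytes of injured skin also make. Both were highest in LE replicate 2. S100a8 read 10.05, 10.70 and 10.38 at the LE, 9.86 on each hub array, and 7.85, 6.39 and 7.81 in control skin. S100a9 read 9.91, 10.51 and 10.47 at the LE, 9.73, 9.80 and 9.83 in the hub, and 8.75, 7.12 and 9.06 in control skin. Both had LE above hub above control without overlap, as Adam8 did. The part of leukocytes in the Adam8 values was not tested. With only LE replicate 2 kept at the LE, Adam8 was 0.92 above the hub and 1.54 above control. A lone array shows no spread at the LE, so these differences have no test of their own. That setting was chosen after the data were seen.

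**Figure D1:**
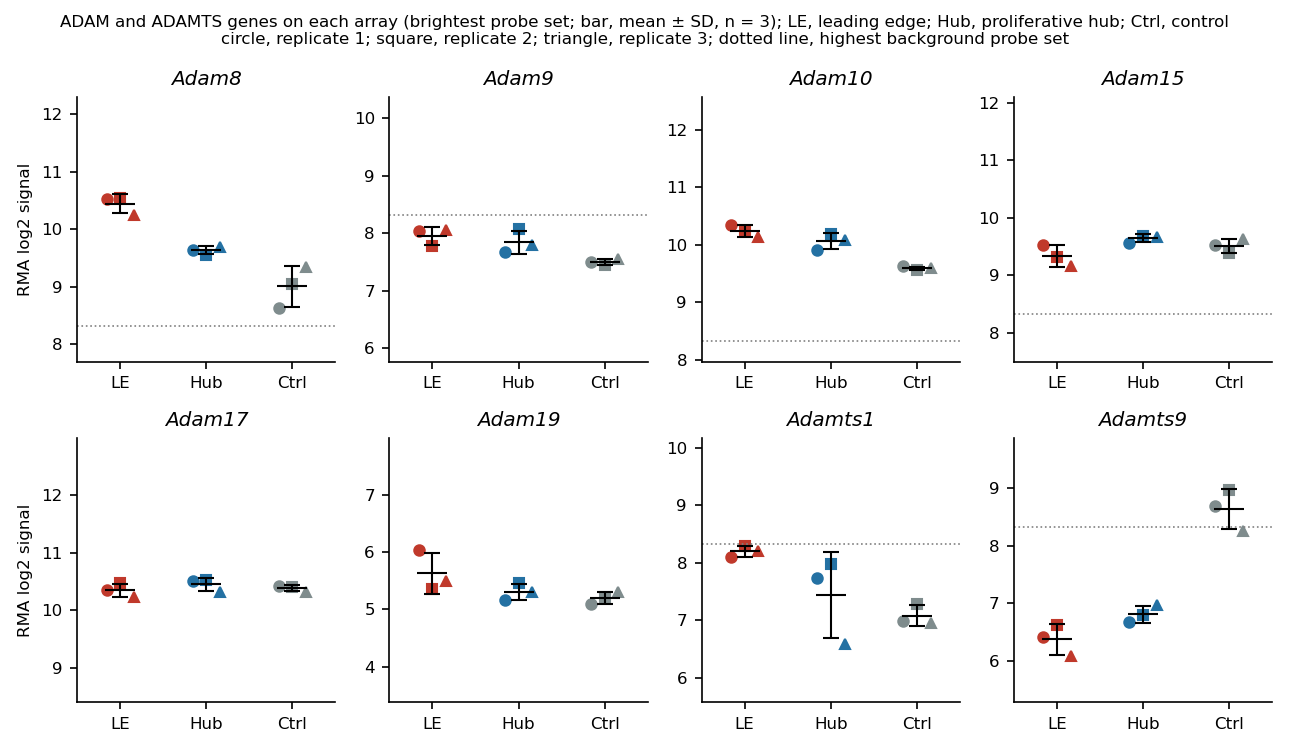
RMA log2 signal of the 8 members on each of the 9 arrays (LE, leading edge; Hub, proliferative hub; Ctrl, control; bars, mean and SD, n = 3; all panels span the same number of log2 units). Adam8 fell into 3 separate steps with means of 10.44, 9.63 and 9.01, Adamts9 was below 7 on every wound array and above 8 on every control array, and the 9 values of Adam17 lay between 10.23 and 10.52.

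Adam10, the main sheddase of Notch receptors and E-cadherin, was higher in both wound regions than in control skin. It read 10.35, 10.25 and 10.14 at the LE, 9.91, 10.18 and 10.09 in the hub and 9.62, 9.56 and 9.59 in control skin. LE and hub values overlapped, and both stood clear of control. The difference was 0.66 ± 0.09 for LE against control (1.58-fold, adjusted p = 0.000500, limma) and 0.47 ± 0.09 for hub against control (1.38-fold, adjusted p = 0.0119), and both calls held without each array in turn. LE and hub differed by 0.19 ± 0.09 (95% interval from -0.01 to 0.38), which missed the threshold (adjusted p = 0.244).

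The size of the Adam10 change depended on the probe set. Over its 3 probe sets the difference between LE and control ran from 0.66 to 1.15, and all 3 were called. Between hub and control it ran from 0.47 to 0.69, with 2 called. Between LE and hub it ran from 0.19 to 0.46 and 0 were called (limma over all probe sets with 1 symbol). When the 3 sets were averaged, Adam10 was called as higher at the LE than in the hub (0.37, adjusted p = 0.0150).

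Adam17, the sheddase that frees TNF and TGF-α, read 10.35, 10.46 and 10.23 at the LE, 10.51, 10.52 and 10.32 in the hub and 10.42, 10.40 and 10.32 in control skin. Its values overlapped in all 3 comparisons. LE and control differed by -0.03 ± 0.09 (95% interval from -0.22 to 0.16, adjusted p = 0.845, limma), LE and hub by -0.10 ± 0.09 (from -0.29 to 0.09, adjusted p = 0.581), and hub and control by 0.07 ± 0.09 (from -0.12 to 0.26, adjusted p = 0.758). None of its 3 probe sets was called in any comparison. Their signs differed for LE against hub and for hub against control, and all 3 were below 0 for LE against control.

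Adam9, a widely made membrane sheddase, read 8.04, 7.78 and 8.06 at the LE, 7.68, 8.07 and 7.79 in the hub and 7.49, 7.44 and 7.55 in control skin. LE and hub overlapped, while every wound array read above every control array. It was higher at the LE than in control skin by 0.46 ± 0.11 (1.38-fold, adjusted p = 0.0158, limma), and the call was lost without LE replicate 1 (adjusted p = 0.0568) or LE replicate 3 (adjusted p = 0.0630). The hub exceeded control by 0.35 ± 0.11, which missed the threshold (adjusted p = 0.108).

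Adam15, a member whose human form carries an integrin-binding RGD sequence, had its lowest mean at the LE by the main probe set. It read 9.53, 9.31 and 9.15 there, 9.56, 9.69 and 9.67 in the hub and 9.52, 9.39 and 9.64 in control skin. LE and hub did not overlap but missed the threshold (-0.31 ± 0.11, adjusted p = 0.104, limma). Each of its 4 probe sets was lower at the LE than in the hub, from -0.33 to -0.29, and 0 of them were called over all probe sets. Their mean passed (-0.31, adjusted p = 0.0222). The main probe set passed with weights per array (adjusted p = 0.0298) and also without LE replicate 1, at -0.41 (adjusted p = 0.0366). Against control skin, neither the LE (-0.18 ± 0.11, adjusted p = 0.270) nor the hub (0.13 ± 0.11, adjusted p = 0.612) passed. The dimmest Adam15 probe set went the other way for LE against control (0.10, not called).

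Adam19, which cleaves neuregulins, was near the background on all arrays. It read 6.03, 5.36 and 5.49 at the LE, 5.17, 5.45 and 5.30 in the hub and 5.10, 5.21 and 5.31 in control skin, and passed in no comparison (adjusted p from 0.0916 to 0.818, limma). LE replicate 1 was the highest of the 9 arrays. The mean of the 12 endothelial markers was also highest on that array, 7.07, against 6.19 and 6.27 on the other LE arrays. So was the mean of the 18 myeloid markers, at 6.83, against 6.36 and 6.77. Without that array, Adam19 was 0.12 above the hub and 0.22 above control, and without LE replicate 2 it was called as higher at the LE than in control skin (0.56, adjusted p = 0.0444). The part of endothelial or myeloid cells in these values was not tested.

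Adamts1 and Adamts9, both secreted proteases that cut versican, moved in opposite directions. Adamts1 read 8.10, 8.30 and 8.20 at the LE, 7.73, 7.98 and 6.58 in the hub and 6.98, 7.29 and 6.95 in control skin. Every LE array was above every hub and control array, and hub replicate 3 was the lowest of all 9. The LE exceeded control by 1.12 ± 0.30 (2.18-fold, adjusted p = 0.0228, limma), a call lost without any of the 3 LE arrays, control replicate 1 or control replicate 3 (adjusted p up to 0.0717). The LE exceeded the hub by 0.77 ± 0.30 (adjusted p = 0.154), and by 0.34 without hub replicate 3. Without that array the hub was called as higher than control (0.78, adjusted p = 0.0151), against 0.36 ± 0.30 (adjusted p = 0.610) with it.

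Marker values on hub replicate 3, where Adamts1 was lowest, are given beside it. Its endothelial mean was 6.56, against 6.18 and 6.56 on the other hub arrays, and its myeloid mean was 6.25, against 6.27 and 6.22. The part of other cells in that Adamts1 value was not tested.

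Adamts9 had the largest change of the members against control skin by the main probe sets, and not with the probe sets of each gene averaged, where LE against control was -0.99 for Adamts9, 1.43 for Adam8 and 1.12 for Adamts1. It read 6.42, 6.62 and 6.08 at the LE, 6.67, 6.80 and 6.97 in the hub and 8.69, 8.97 and 8.26 in control skin. All 6 wound arrays lay below all 3 control arrays, and the LE arrays also lay below the hub arrays, an order shared by 3.30% of all genes. Adamts9 fell by 2.27 ± 0.19 at the LE relative to control (4.83-fold lower, adjusted p = 2.41e-05, limma) and fell by 1.83 ± 0.19 in the hub relative to control (3.55-fold lower, adjusted p = 0.000627). Both calls held without each array in turn. The difference between LE and hub, -0.44 ± 0.19, missed the threshold (adjusted p = 0.193).

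The 3 probe sets of Adamts9 had the same sign against control and differed in size. A dimmer set, which averaged 6.15 over the 9 arrays, gave -0.58 ± 0.12 for LE against control (adjusted p = 0.00572, limma over all probe sets) and -0.57 ± 0.12 for hub against control (adjusted p = 0.0196). The dimmest set averaged 4.61, close to the background median, and gave -0.12 and -0.17, neither of which was called. With the 3 sets averaged, Adamts9 remained called as lower, by 0.99 at the LE and by 0.86 in the hub.

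**Figure D2:**
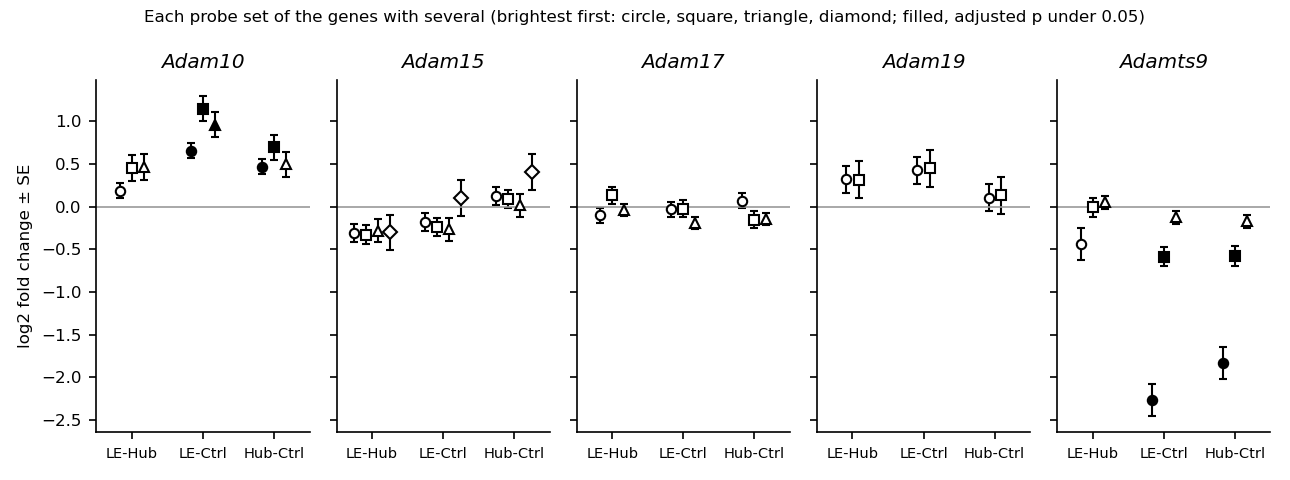
Log2 fold change of each probe set of the 5 members with more than 1, with its SE (limma over all probe sets; sets ordered from brightest to dimmest; filled, adjusted p under 0.05; LE, leading edge; Hub, proliferative hub; Ctrl, control; fold changes are first group minus second). The 3 Adam10 sets were all above 0, from 0.66 to 1.15 for LE against control, and the 3 Adamts9 sets ran from -2.27 to -0.12 for the same comparison.

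The comparison of LE and hub sets cells at the front with α5 integrin against cells behind them without it. Position and gate are joined in it. For this family it called 1 of 8 members, Adam8, with 0 lower. Over all genes, 10.6% were called, 5.39% as higher and 5.23% as lower. The groups did not overlap for 4 of the 8, Adam8, Adam15, Adamts1 and Adamts9, against 30.0% of all genes. The median difference was 0.15 over the 8 members and -0.01 over all genes. Without LE replicate 1 the count was 2. The fold rule of the study's methods, read here as more than 2-fold between arrays of equal number in all 3 pairs, was met by 0 members and by 1.04% of all genes.

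Against control skin, which asks what wounding with the gate changed at the front, 4 of the 8 members were higher at the LE and 1 was lower. Over all genes 22.8% were called, 11.9% as higher and 10.8% as lower. Groups did not overlap for 6 of the 8, against 36.2% of all genes, and the median difference was 0.44, against 0.02. The count of 5 called members became 3 without LE replicate 1 or without LE replicate 3. The fold rule was met by 2 members and by 3.01% of all genes.

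In the hub against control, 2 of the 8 were higher, Adam8 and Adam10, and 1 was lower, Adamts9, where 7.28% of all genes were called, 4.16% as higher and 3.12% as lower. Groups did not overlap for 4 of the 8, against 23.8% of all genes, and the median difference was 0.24, against 0.03. The fold rule was met by 1 member and by 0.521% of all genes. The 3 comparisons share arrays, so their counts are not independent of each other.

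**Figure D3:**
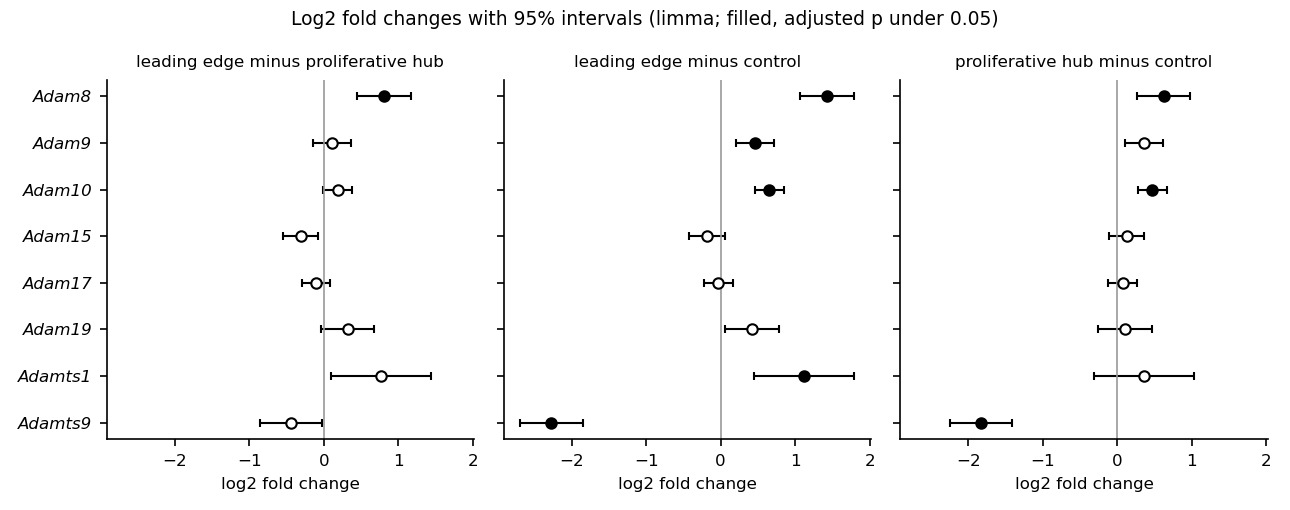
Log2 fold changes of the 8 members in the 3 comparisons, first group minus second, with 95% intervals (limma; filled, adjusted p under 0.05). Filled points number 1 for LE minus hub, 5 for LE minus control and 3 for hub minus control, and the Adamts9 changes of -2.27 and -1.83 are the farthest from 0.

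The rest of the family did not rise above the background range. Of 28 other ADAM genes listed, 21 were measured, and of 22 other ADAMTS and ADAMTS-like genes, 17 were measured. All 38 had group means inside that range in every group, though its top lies above the median signal of every array. In LE against hub and in hub against control, 0 of the 38 were called, against 10.6% and 7.28% of all genes. For LE against control, 22.8% of all genes were called. In LE against control, Adam12, a member made by muscle and mesenchymal cells, and Adamts10, which acts on fibrillin microfibrils, were called as higher. Adam12 read 8.15, 7.78 and 6.13 at the LE, 5.88, 7.07 and 6.80 in the hub and 5.75, 5.65 and 5.61 in control skin. It exceeded control by 1.69 ± 0.47 (adjusted p = 0.0289, limma), a call lost without LE replicate 1, LE replicate 2 or any control array (adjusted p of 0.0591 or more). Adamts10 rose by 0.28 ± 0.08 (adjusted p = 0.0358), and its call was kept without only 3 of the 9 arrays taken in turn. Its other probe set gave -0.12, and the mean of both gave 0.080 and was not called (adjusted p = 0.613).

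Of the inhibitors, Timp1, Timp2, Timp3 and Reck were measured. Timp3 inhibits ADAM17 and several ADAMTS proteases as well as matrix metalloproteinases. It read 7.84, 7.63 and 6.62 at the LE, 8.12, 8.50 and 7.92 in the hub and 10.62, 10.42 and 10.54 in control skin. Every wound array was below every control array. Timp3 fell by 3.16 ± 0.28 at the LE (adjusted p = 3.60e-05, limma) and fell by 2.35 ± 0.28 in the hub (adjusted p = 0.00144) relative to control, and all 4 Timp3 probe sets were called as lower in both. The main Timp3 set differed by -0.82 ± 0.28 between LE and hub, which missed the threshold (adjusted p = 0.101), and 1 of the 4 sets was called there. Timp1, known mainly as an inhibitor of matrix metalloproteinases and of ADAM10, rose by 4.04 ± 0.25 at the LE against control (adjusted p = 4.62e-06) and by 3.09 ± 0.25 against the hub (adjusted p = 7.89e-05), the only inhibitor called between LE and hub. Its value in the hub, 6.94 ± 0.45, against 5.99 ± 0.05 in control skin, missed the threshold (adjusted p = 0.0513). Timp2 and Reck were called in no comparison.

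Proteins that carry ADAM10 and ADAM17 to the surface, with the convertases that remove their prodomains, had 12 of 13 genes measured. At the LE against control 2 were higher and 2 lower, against the hub 1 and 1, and in the hub against control 0 and 1. The shares called over all genes were 22.8%, 10.6% and 7.28% in the same order. Rhbdf1, which encodes an iRhom partner of ADAM17, read 9.82, 9.82 and 9.81 at the LE, 9.90, 9.84 and 9.85 in the hub and 10.42, 10.31 and 10.21 in control skin. It fell by 0.49 ± 0.07 at the LE (adjusted p = 0.000750, limma) and by 0.45 ± 0.07 in the hub (adjusted p = 0.00498) relative to control. The tetraspanin genes Tspan5 and Tspan17, whose products escort ADAM10, moved in opposite directions at the LE against control, by -0.67 ± 0.10 (adjusted p = 0.000795) and 0.44 ± 0.08 (adjusted p = 0.00241). Furin, a convertase that activates ADAM proteins, averaged 9.84 ± 0.03 at the LE and 9.27 ± 0.17 in control skin, a rise of 0.57 ± 0.10 (adjusted p = 0.00264).

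Against the hub, the LE had less Tspan5 (-0.45 ± 0.10, adjusted p = 0.0155, limma) and more Tspan17 (0.42 ± 0.08, adjusted p = 0.00685). The Tspan5 call was lost without any of 4 of the 9 arrays. Of the 2 Tspan17 probe sets, 1 was called and the other gave -0.01.

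Genes for proteins that ADAMs shed changed in both directions, with 30 of 32 measured. At the LE, 10 were higher and 6 lower than in the hub, and 12 were higher and 8 lower than in control skin. In the hub, 5 were higher and 3 lower than in control skin. The shares over all genes were 5.39% higher and 5.23% lower for LE against hub. They were 11.9% and 10.8% for LE against control, and 4.16% and 3.12% for hub against control. The ligand genes Tgfa and Ereg rose most, by 3.14 ± 0.17 and 2.52 ± 0.10 at the LE against control (adjusted p = 2.08e-06 and 5.08e-07, limma), followed by the neuregulin gene Nrg1 at 1.63 ± 0.17 (adjusted p = 9.74e-05). The 3 Tgfa probe sets gave 0.74 to 3.14, and all 3 were called. Il1r2, a decoy receptor for interleukin-1 that is shed, read 6.89, 6.55 and 6.34 at the LE, 8.01, 8.21 and 8.38 in the hub and 8.67, 9.23 and 8.56 in control skin. It fell by 2.22 ± 0.19 at the LE relative to control (adjusted p = 3.40e-05) and by 1.61 ± 0.19 relative to the hub (adjusted p = 0.000751). In the hub against control, the chemokine gene Cxcl16 fell by 1.21 ± 0.14 (adjusted p = 0.00132) and L1cam, which encodes an adhesion molecule, rose by 0.70 ± 0.13 (adjusted p = 0.0107). The median difference over the 30 was 0.15 for LE against hub, 0.13 for LE against control and -0.05 for hub against control, beside -0.01, 0.02 and 0.03 over all genes.

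**Figure D4:**
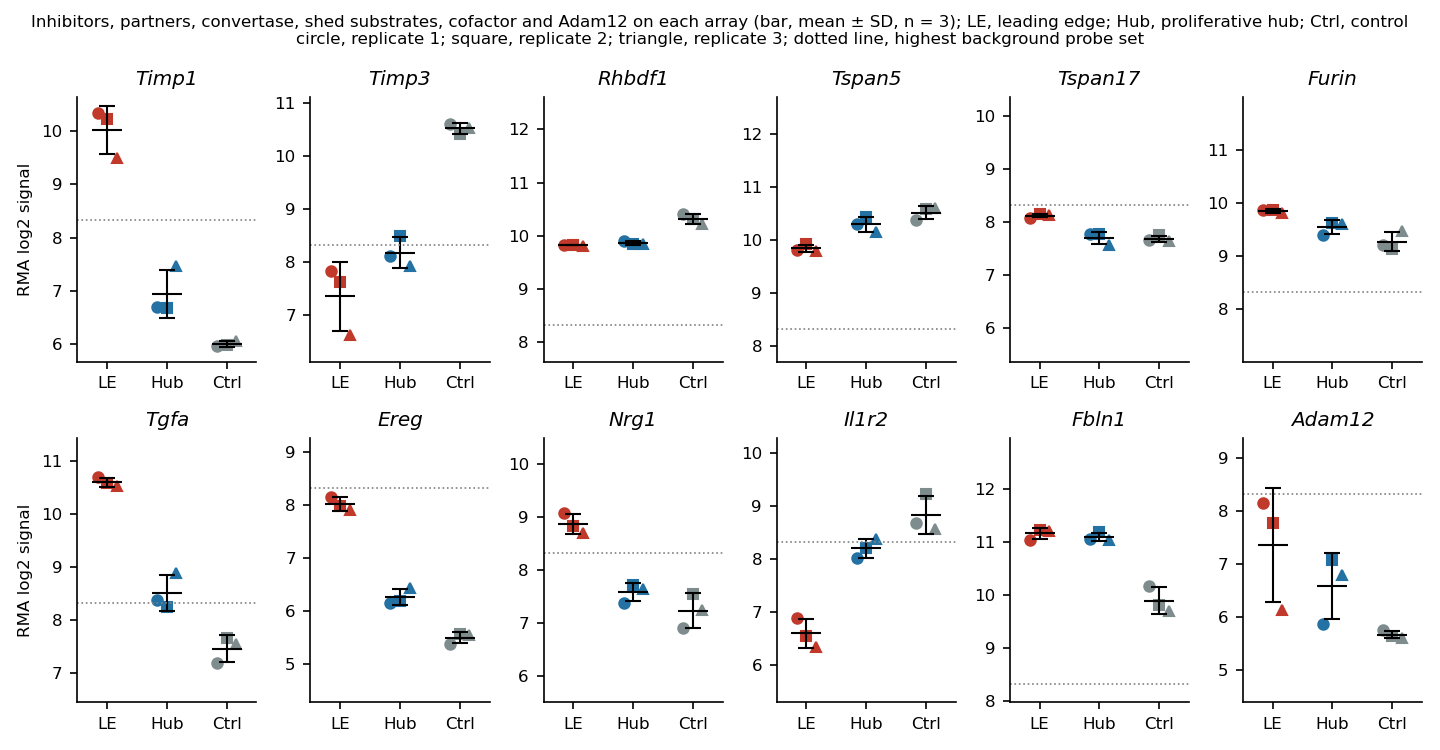
RMA log2 signal on each array for inhibitors (Timp1, Timp3), surface partners (Rhbdf1, Tspan5, Tspan17), the convertase Furin, shed substrates (Tgfa, Ereg, Nrg1, Il1r2), the cofactor Fbln1 and Adam12 (LE, leading edge; Hub, proliferative hub; Ctrl, control; bars, mean and SD, n = 3). Timp3 and Rhbdf1 were lower on every wound array than on any control array, and Fbln1 was higher on every wound array, with means of 11.15 at the LE, 11.09 in the hub and 9.89 in control skin.

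The γ-secretase complex cuts Notch and other membrane stubs after shedding, and 6 of its 7 genes were measured. Psenen and Aph1b were called as lower at the LE than in control skin, by 0.31 ± 0.06 (adjusted p = 0.00698, limma) and 0.67 ± 0.18 (adjusted p = 0.0239), and 0 were called as higher. The Aph1b call was lost without LE replicate 2 or 3 (adjusted p up to 0.0813). Psenen was also lower than in the hub (-0.26 ± 0.06, adjusted p = 0.0290), a call lost without any of 6 of the 9 arrays, and 0 were called in the hub against control. Among all genes, 22.8% were called for LE against control, 10.6% for LE against hub and 7.28% for hub against control.

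Of 7 genes for ADAMTS substrates and a cofactor, 6 were measured, and Fbln1 was the only call in any comparison. The shares called over all genes were 10.6% for LE against hub, 22.8% for LE against control and 7.28% for hub against control. Fbln1 encodes fibulin-1, a matrix protein known as a cofactor of ADAMTS1. It read 11.03, 11.23 and 11.21 at the LE, 11.06, 11.18 and 11.03 in the hub and 10.17, 9.80 and 9.69 in control skin. Both wound regions stood clear of control, by 1.27 ± 0.12 at the LE (adjusted p = 6.52e-05, limma) and 1.20 ± 0.12 in the hub (adjusted p = 0.000614). Of the 3 Fbln1 probe sets, 2 were called as higher in both comparisons and the other gave -0.03 in each. Vcan, which encodes versican, had group means of 7.15 at the LE, 7.13 in the hub and 6.94 in control skin, inside the background range.

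Genes with the pattern most like those of Adamts9 and Adam8, the members with the largest moderated F statistic over the 3 groups, were sought among 2209 genes that spanned at least 1 log2 unit over the 9 arrays. By Pearson's correlation over the 9 arrays, the nearest to Adamts9 were Vldlr (0.980), Rel (0.979), Cish (0.978), Otud1 (0.978) and Rgcc (0.976). The nearest to Adam8 were Fblim1 (0.991), Creld2 (0.990), Synpo (0.985), Spsb1 (0.982) and Ptgfrn (0.980). The 9 arrays fall into 3 groups, so these values mostly describe the order of the group means. Fblim1, for example, averaged 9.94 at the LE, 8.40 in the hub and 7.09 in control skin, and Rel averaged 7.24, 7.42 and 8.40 in the same order.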

How the data were processed

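Each sample of basal cells was read on 1 Affymetrix mouse PM strip array. The deposited values are log2 signals that the authors made with RMA, which corrects background, gives all arrays 1 distribution and summarises probes into probe sets. Because all arrays share 1 distribution, a change in total RNA cannot be seen. No RMA version is stated. Symbols came from GEO's annotation of the platform. Of 45141 probe sets, 28898 had 1 symbol and were used, 551 had several, and 104 were controls. All 8 members matched RefSeq (GRCm38.p6) by gene identifier. The brightest probe set stood for each of 17097 genes. All 9 arrays entered 1 model with group means (limma 3.58.1, R 4.3.3, lmFit and eBayes), two-sided, with Benjamini-Hochberg adjustment over all genes and calls at an adjusted p under 0.05. The test was checked on simulated data with independent normal errors, so effects shared by the genes of an array, such as other cells, were not covered. No depth applies, and the number of arrays limits the precision.

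The members, gene lists and tests were chosen with earlier results of these data known. All 8 members are named. Of each other list, up to 4 called genes with the largest change per comparison were eligible, and further genes named were chosen after their values were seen. For likeness, the 5 most correlated genes were taken. Over all probe sets, arrays of 1 group correlated at 0.988 to 0.995, arrays of different groups at 0.964 to 0.986, and 0 pairs were identical. The alternatives were array weights, median centring, a second quantile normalization, a trend of variance with level, the replicate number as a block, leaving out dim genes, other uses of probe sets, only the 6 arrays compared, fold rules and leaving out arrays. The fold rule of the study's methods was read as over 2-fold in each same-numbered pair.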

Additional observations from a re-analysis of the deposited data

How the results depend on the processing

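Of 456 fold changes of members under an alternative, 422 kept their direction and side of the threshold, 23 lost a call, 6 gained one and 5 changed sign without a call. Called members numbered 1 for LE against hub, and 2 with array weights, 3 with the mean of all probe sets, and 0 with a 2-fold minimum, with over 2-fold in each same-numbered pair or with LE replicates 1 and 3 both left out. For LE against control the 5 became 3 with a 2-fold minimum, 2 with the pair rule and 3 without those LE replicates. For hub against control the 3 became 1 with either fold rule. Leaving out 1 array gave 1 to 2, 3 to 5 and 2 to 3 called members in these comparisons.

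Over all genes, 1816 calls for LE against hub became 2756 with all probe sets tested, 319 with a 2-fold minimum, 178 with the pair rule and 587 without LE replicates 1 and 3. For LE against control, 3891 became 6278, 803, 515 and 1751 in the same order. For hub against control, 1244 became 186 with a 2-fold minimum, 89 with the pair rule, and 766 with only the 6 arrays compared or without LE replicates 1 and 3. Leaving out 1 array gave 1225 to 1961, 3008 to 3691 and 699 to 1153. The all-probe-set counts are of more features, and the settings with fewer arrays have fewer samples.

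Sign changes were in values that were not called. Adam17 for LE against control ran from -0.089 to 0.025 with 1 array left out (0.025 without LE replicate 3). It became 0.083 for LE against control and 0.013 for LE against hub without LE replicates 1 and 3. It became -0.077 for hub against control with the mean of all probe sets. Adam9 became -0.070 for LE against hub without LE replicates 1 and 3. The cause was not tested. Deviations of same-numbered arrays from their group means gave 9 correlations from -0.18 to 0.08. These cannot settle whether the numbers pair the samples, because noise of single arrays could hide a shared source. With the replicate block, called members were 1, 5 and 2, and called genes 1629, 3661 and 1006. The Adam8 call for hub against control missed the threshold with that block (adjusted p = 0.0827).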
